A study of Mus musculus with 6 samples.

Results

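The Hox, Fox, Sox, Tbx, Pax, Lhx and Gata genes encode families of transcription factors that set the identity of tissues in the embryo. Members were chosen by symbol among the protein-coding genes of GENCODE vM1 on mm9, as the prefix Sox, Tbx, Pax, Lhx or Gata followed by a number, Hox by a cluster letter and a number, or Fox by a letter and a number with an optional final letter, as in Foxf1a. Gatad genes were left out and tried as an alternative. The rule took 135 of 22269 genes, made up of 43 Fox, 39 Hox, 17 Sox, 13 Tbx, 9 Pax, 8 Lhx and 6 Gata genes. The remaining 22134 protein-coding genes served as the background. A gene was counted as near a peak when the center of the peak lay inside the gene or within 10 kb of it.

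RBPJ, the DNA-binding effector of the Notch pathway, was mapped by ChIP-seq in F9 cells, a mouse embryonal carcinoma line. The asynchronous population held 95% interphase and 5% mitotic cells, and the mitotic population was arrested with nocodazole, a drug that depolymerizes microtubules. Of 6 sequenced libraries, the first immunoprecipitation of each population has the peak list examined here, with 5206 asynchronous peaks of 173 bp and 3227 mitotic peaks of 203 bp. With 1 list per population there were no replicates and no test was made. Ranges in parentheses are 95% intervals (exact Clopper-Pearson), which cover counting error only, and neighbouring genes that share a peak are not independent. The height of a peak is given by the authors' score, by which peaks were ranked inside their own list. Peak positions hold no expression values, so neither the identity of the cells nor the activity of the genes could be checked.

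Transcription factors of these families act in combination, and many lie at the head of a lineage: Gata6 and Sox17 in primitive endoderm, Tbx6 in presomitic mesoderm, Foxj1 in ciliated cells. Hox genes lie in clusters in which the order of the genes follows the order of their expression along the body axis. F9 cells are undifferentiated and form endoderm when treated with retinoic acid, and Notch signaling acts through RBPJ in many of the tissues that these factors pattern.

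Peaks at members that held the RBPJ motif, TTCCCACA or TTCCCACG on either strand, are shown first, because these letters are the sequence that RBPJ is known to bind. There were 2 such asynchronous peaks, at Gata3 (chr2:9806112-9806284) and Gata5 (chr2:180069703-180069875), and 2 such mitotic peaks, at Hoxb1 (chr11:96227729-96227931) and Lhx1 (chr11:84329884-84330086). All are given on the plus strand of mm9, and capitals mark the motif or, where it lies on the minus strand, its reverse complement.
Gata3, asynchronous: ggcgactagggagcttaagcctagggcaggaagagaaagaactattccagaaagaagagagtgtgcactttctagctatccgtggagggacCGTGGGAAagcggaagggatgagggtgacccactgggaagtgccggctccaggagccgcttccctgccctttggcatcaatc
Gata5, asynchronous: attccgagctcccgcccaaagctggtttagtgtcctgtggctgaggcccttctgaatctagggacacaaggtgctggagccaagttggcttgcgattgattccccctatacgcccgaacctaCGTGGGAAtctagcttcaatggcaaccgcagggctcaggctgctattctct
Hoxb1, mitotic: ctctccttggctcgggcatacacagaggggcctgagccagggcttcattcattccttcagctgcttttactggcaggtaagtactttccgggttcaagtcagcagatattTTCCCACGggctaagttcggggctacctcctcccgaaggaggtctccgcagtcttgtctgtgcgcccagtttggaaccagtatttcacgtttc
Lhx1, mitotic: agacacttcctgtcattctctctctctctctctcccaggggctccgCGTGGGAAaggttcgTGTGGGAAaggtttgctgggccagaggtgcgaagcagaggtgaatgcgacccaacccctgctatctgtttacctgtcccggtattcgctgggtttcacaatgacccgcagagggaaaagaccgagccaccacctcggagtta

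The motif was TTCCCACG at Gata3, Gata5 and Hoxb1. The Lhx1 peak held 2 motifs on the minus strand, TTCCCACG and TTCCCACA.

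At Tbx3 an asynchronous and a mitotic peak overlapped in part, and both are shown for that reason. The peaks were chr5:120131979-120132151 in asynchronous and chr5:120131838-120132040 in mitotic cells. Both are on the plus strand of mm9, and capitals mark the 62 bp that the peaks share.
Tbx3, asynchronous: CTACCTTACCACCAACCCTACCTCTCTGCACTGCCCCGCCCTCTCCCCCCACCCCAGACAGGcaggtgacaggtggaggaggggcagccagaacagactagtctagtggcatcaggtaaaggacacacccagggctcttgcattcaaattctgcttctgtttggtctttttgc
Tbx3, mitotic: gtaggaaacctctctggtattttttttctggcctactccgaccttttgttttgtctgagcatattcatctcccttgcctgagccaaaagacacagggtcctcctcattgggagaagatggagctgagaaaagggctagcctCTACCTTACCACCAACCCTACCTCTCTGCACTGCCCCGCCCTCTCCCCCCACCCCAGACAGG

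Neither of these overlapping peaks held TTCCCACA or TTCCCACG.

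An asynchronous peak lay near 32 of the 135 members, or 23.7% (16.8 to 31.8), against 21.4% of all other protein-coding genes. A mitotic peak lay near 33 members, or 24.4% (17.5 to 32.6), against 12.3% of the others. The asynchronous share was close to its background, which lay inside the interval. The mitotic share was above its background, which lay below the interval. A peak of either list was near 56 members, or 41.5% (33.1 to 50.3), against 27.4% of the others, and 79 members had none. Both lists had a peak near 9 members, or 6.67% (3.09 to 12.3), against 6.34% of the others. An overlapping pair was near 2 members, or 1.48% (0.180 to 5.25), against 2.39% of the others.

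**Figure D1:**
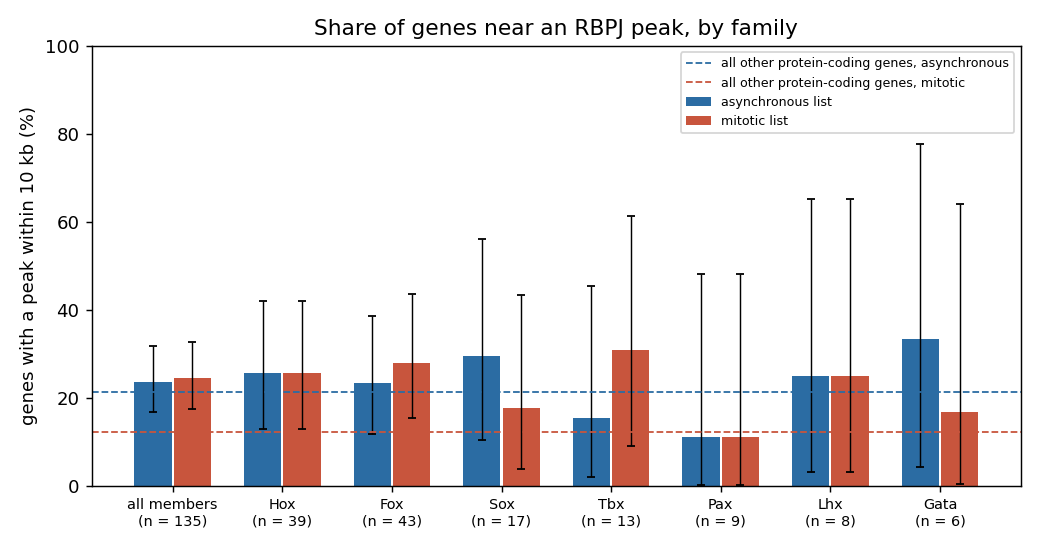
Share of genes (%) with an RBPJ peak centered inside the gene or within 10 kb, for all members and each family, with bars for the asynchronous and the mitotic list, exact 95% intervals as error bars and the share of all other protein-coding genes as dashed lines. For all members the bars stand at 23.7% and 24.4%, and the dashed lines at 21.4% and 12.3%; the intervals of single families are wide.

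The order of the asynchronous shares depended on the window. In the gene body alone an asynchronous peak lay at 8.89% of members and 9.08% of other genes, within 5 kb at 17.0% and 17.7%, and within 50 kb at 48.9% and 38.7%. With only peaks at or above the median score, the asynchronous share was 9.63% of members and 12.6% of other genes. The mitotic share of members was above that of other genes in each of these settings, at 12.6% and 5.98% in the gene body, 19.3% and 10.1% within 5 kb, 47.4% and 25.4% within 50 kb, and 18.5% and 7.73% at or above the median score.

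Distinct peaks, each counted once, numbered 37 in asynchronous and 36 in mitotic cells, or 0.711% and 1.12% of the lists. The windows of members were shorter than those of other genes, with medians of 27.4 and 35.5 kb, and joined they covered 7.27 Mb. Per Mb of joined window there were 5.09 asynchronous peaks at members and 3.31 at other genes, a ratio of 1.54 (1.08 to 2.12). The asynchronous excess was not stable: with X and Y left out, which removed 5 peaks, the ratio was 1.32 (0.905 to 1.87), and with the gene body alone 1.03 (0.549 to 1.77). For mitotic peaks the densities were 4.95 and 1.89, a ratio of 2.62 (1.83 to 3.64), and the interval stayed above 1 in all 10 alternatives. Peaks were unevenly spread over chromosomes. Chromosome 8 held 518 asynchronous and 527 mitotic peaks, or 9.95% and 16.3% of the lists, and chromosomes 12 and 6 held 9.79% and 9.14% of the mitotic list. At the density of other genes on the same chromosomes, the windows of members would hold 25.0 asynchronous and 15.7 mitotic peaks, which puts the observed numbers at 1.48 and 2.29 times those values. Without chromosomes 6, 8 and 12 the density ratios were 2.15 and 3.68.

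**Figure D2:**
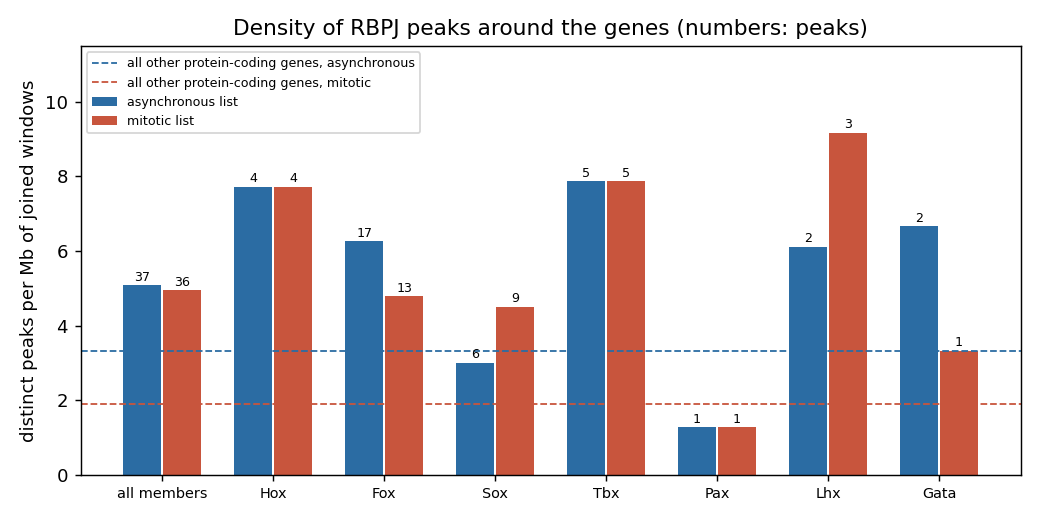
Distinct RBPJ peaks per Mb in the joined 10 kb windows of all members and of each family, for the asynchronous and the mitotic list, with the number of peaks above each bar and the density at all other protein-coding genes as dashed lines. All members stand at 5.09 and 4.95 peaks per Mb beside 3.31 and 1.89 at other genes, while Pax genes, with 1 peak in each list, stand at 1.28.

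Of the peaks at members, none of the asynchronous and 11.1% of the mitotic ones ranked in the top 10% of their list, ties included, against 10.9% and 13.4% of the other peaks. The best ranked asynchronous peak lay near Foxf1a, at rank 562 with a score of 16.5, while the list reached 58.3. The median score was 11.4 at members and 11.8 elsewhere. In mitotic cells the best ranked lay near Foxj2, at rank 40 with a score of 18.9, while the list reached 282.5, and the median was 10.9 both at members and elsewhere. The lowest score of the mitotic list, 10.2, was held by 14 of the 36 peaks at members, or 38.9%, and by 42.7% of the other peaks.

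**Figure D3:**
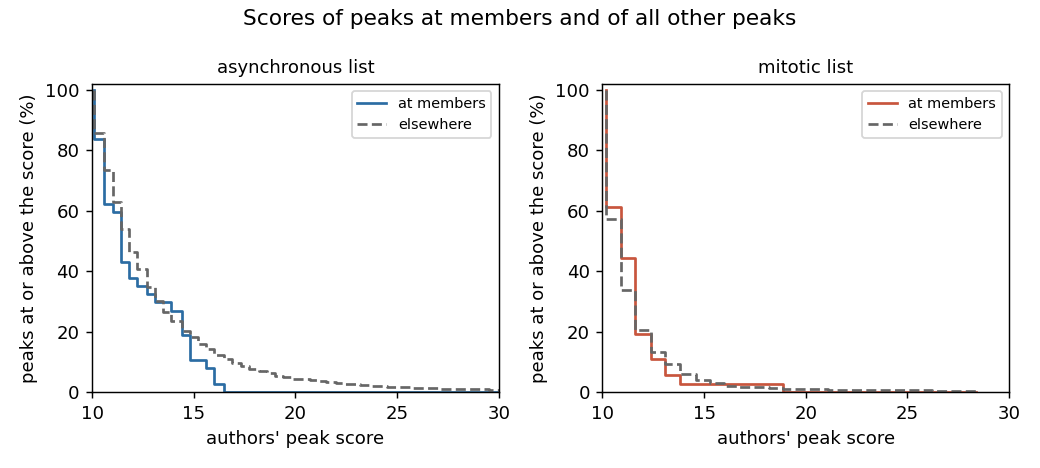
Share of peaks (%) at or above each value of the authors' score, up to a score of 30, for peaks at members (solid) and elsewhere (dashed), with the asynchronous list on the left and the mitotic list on the right. No asynchronous peak at a member scored above 16.5, and in the mitotic list 44.4% of peaks at members and 33.9% of the others reached 11.6, but 19.4% and 20.5% reached 12.4, with the Foxj2 peak at 18.9.

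Of the 37 asynchronous peaks at members, 2 overlapped a mitotic peak, or 5.41% (0.661 to 18.2), against 7.76% of the other asynchronous peaks. In the other direction it was 2 of 36, or 5.56% (0.680 to 18.7), against 12.6%. The study instead called sites common when read enrichment was similar in both populations. Overlap of called peaks is a different measure and does not give the share of sites retained in mitosis. At 7 members near peaks of both lists, the closest centers were 1427 bp apart at Foxo6, 3627 bp at Foxd2, 4891 bp at Sox13, 20892 bp at Foxp4, 28039 bp at Hoxa3, 96683 bp at Pax5 and 152385 bp at Sox5. Of the other genes, 1403 were near peaks of both lists and 529 near an overlapping pair, so peaks of both lists without overlap were common outside the members too.

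The Hox genes, which pattern the body axis, were near 4 asynchronous and 4 mitotic peaks. Because the genes lie close together, these few peaks gave 10 of 39 genes an asynchronous and 10 a mitotic peak, each 25.6% (13.0 to 42.1). Of other genes, 21.4% were near an asynchronous peak, inside that interval, and 12.3% near a mitotic peak, just below it. Without the Hox genes, the shares over the members were 22.9% and 24.0%. The Hoxa cluster (chr6:52105366-52210874) had 1 peak of each list. The asynchronous peak, score 11.0, lay in an intron of Hoxa3 and 127 bp from the start of 5730596B20Rik. The mitotic peak, score 11.6, was 823 bp upstream of Hoxa5, in an intron of Hoxa3 as annotated, and within 10 kb of Hoxa6 and Hoxa7. Hoxa3 was the Hox gene with the most peaks, 1 from each list.

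The Hoxb cluster (chr11:96055630-96229570) had 2 asynchronous peaks. The higher, score 11.4, lay 32 bp inside the start of Hoxb7 as annotated and in a coding exon of Hoxb8, and was also near Hoxb6 and Hoxb9. The other, score 10.1, was 1474 bp upstream of Hoxb2 and near Hoxb3. The mitotic peak of the cluster, score 12.4, was the Hoxb1 peak shown above. It lay 764 bp downstream of the start of Hoxb1, a gene of hindbrain patterning that responds to retinoic acid, in a non-coding exon. The Hoxc cluster (chr15:102751534-102867274) had no asynchronous peak and 1 mitotic peak, score 11.6, in an untranslated exon of Hoxc13 and near Hoxc12. The Hoxd cluster (chr2:74506367-74603200) had an asynchronous peak of score 10.1 in an intron of Hoxd3, near Hoxd4 and Hoxd8. Its mitotic peak, score 12.4, lay in an intron of Hoxd11, near Hoxd12 and Hoxd13. In none of the 4 clusters did peaks of the lists overlap, as was the case for most peaks of both lists elsewhere.

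**Figure D4:**
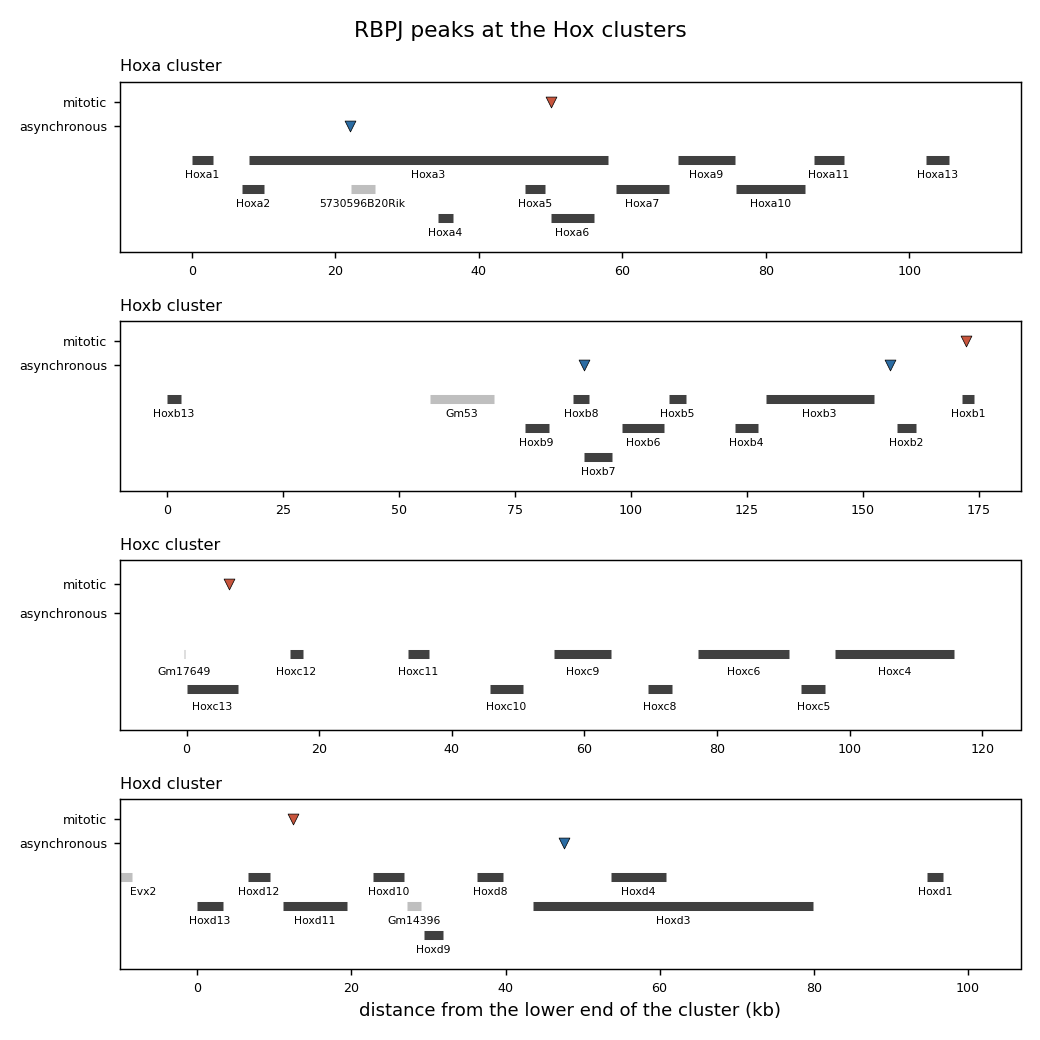
Maps of the 4 Hox clusters, with distance from the lower end of each cluster in kb, genes as dark bars, other protein-coding genes as grey bars, and triangles at the centers of asynchronous and mitotic peaks. Each cluster holds 1 mitotic peak, and the asynchronous peaks number 1 at Hoxa, 2 at Hoxb, 0 at Hoxc and 1 at Hoxd.

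The Fox genes, which encode forkhead factors, are the largest family and had the most peaks by count. There were 17 asynchronous peaks near 10 of 43 genes, or 23.3% (11.8 to 38.6), against 21.4% of other genes. The 13 mitotic peaks lay near 12 genes, or 27.9% (15.3 to 43.7), against 12.3%. The first background lay inside its interval and the second below it. Per Mb of window the Fox genes had 6.26 asynchronous and 4.79 mitotic peaks, against 3.31 and 1.89 at other genes. The densest families were Tbx in the asynchronous list, at 7.87, and Lhx in the mitotic list, at 9.17 from 3 peaks. The Tbx value came from 5 peaks, 4 of them near Tbx3, and Hox genes stood at 7.72 from 4 peaks. Of the 10 highest asynchronous peaks at members, 6 were at Fox genes, which held 17 of all 37. Of the 7 highest mitotic peaks at members, ties included, 2 were at Fox genes. The peak of score 16.5 lay 5890 bp past the end of Foxf1a, a gene of visceral mesoderm. Foxc2, which acts in paraxial mesoderm and lymphatic vessels, had 2 peaks of score 14.4, at 2718 and 7645 bp upstream, and the farther was 134 bp from the start of Mthfsd. Foxd2 had a peak of score 16.0 at 1372 bp upstream. Foxj1, the regulator of motile cilia, had a peak of score 14.4 at 734 bp past its end.

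Foxh1 (chr15:76498714-76500378), the DNA-binding partner of Smad proteins in Nodal signaling, had among its peaks an asynchronous peak of score 14.8 at 1553 bp past its end and a mitotic peak of score 11.6 in a coding exon.

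Among mitotic peaks at members, the highest was 9032 bp upstream of Foxj2 with a score of 18.9. A peak of score 12.4 lay in an untranslated exon of Foxn1, the thymic epithelium factor whose loss causes the nude phenotype, and held the CTCF core motif, a sequence of 12 letters, with 1 mismatch. Genes named after their values were seen are Foxa3 and Foxo4, each with 3 asynchronous and no mitotic peaks, and Foxp4, whose asynchronous peak was 315 bp upstream of its start. Of the asynchronous peaks near Foxo4, an effector of insulin signaling, 1 lay 496 bp upstream of its start. Those near Foxa3, a liver and gut factor, scored 10.6 to 11.4, and 1 was 137 bp from the start of Irf2bp1. Foxr2 had 2 asynchronous peaks, 1 of score 13.9 that was 267 bp from the start of Rragb and 1 of score 10.6 at 287 bp inside its own start.

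Of the remaining Fox genes, Foxo6 had a peak of each list, with scores of 10.6 in asynchronous and 11.6 in mitotic cells, both past its end. Foxk1 had a mitotic peak of 10.9 in a coding exon, and Foxo3 and Foxn3 had mitotic peaks of 10.9 in introns. Foxd3, a factor of early embryonic cells and the neural crest, had a mitotic peak of 10.2 at 2244 bp upstream. Foxb2 had 1 of 10.2 at 1565 bp upstream and Foxr1 1 of 10.2 at 8341 bp past its end. A peak of either list was near 18 of 43 Fox genes, or 41.9% (27.0 to 57.9), against 27.4% of other genes, inside that interval. The remaining 25, among them Foxa1 and Foxa2 of the endoderm, were near no peak.

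An asynchronous peak lay near 5 of 17 Sox genes, or 29.4% (10.3 to 56.0), and a mitotic peak near 3, or 17.6% (3.80 to 43.4), with the 21.4% and 12.3% of other genes inside both intervals. Per Mb the Sox windows held 3.01 asynchronous peaks, below the 3.31 at other genes, and 4.51 mitotic peaks, above the 1.89 at other genes. Sox5 alone made up 0.974 of the 2.00 Mb of Sox windows and held 7 of the 9 mitotic peaks. Sox5 (chr6:143776945-144730497), a regulator of cartilage formation, held 2 asynchronous and 7 mitotic peaks, the most of any member. It is also the longest, with a window of 974 kb. The asynchronous peaks scored 15.6 and 11.4, both in an intron. The mitotic peaks had scores from 10.2 to 13.8; the highest lay in a coding exon, and the next, 13.1, in an intron. The region around Sox5 was rich in mitotic peaks. Its window held 7.19 mitotic peaks per Mb, against 5.50 and 12.5 in the neighbouring 2.00 Mb on the lower and upper side and 1.97 over chromosome 6. For asynchronous peaks the values were 2.05, 6.50, 6.50 and 2.11. Leaving out Sox5 gave 29 mitotic peaks at members and a density ratio of 2.44. Sox7, an endoderm and endothelial gene named after its values were seen, had an asynchronous peak 3777 bp upstream, score 11.8, and Sox17 had none. Sox18, of the same subgroup, had an asynchronous peak of score 11.4 at 7348 bp upstream, 1322 bp from the start of Tcea2. That peak held the CTCF core with 1 mismatch. Sox6, a partner of Sox5, had an asynchronous peak of score 10.1 in an intron, and Sox8 a mitotic peak of score 10.2 that was 500 bp from the start of Lmf1. Sox13 had an asynchronous peak of 10.6 in an intron and a mitotic peak of 10.9 past its end.

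Of the 13 Tbx genes, 2 were near an asynchronous peak, or 15.4% (1.92 to 45.4), and 4 near a mitotic peak, or 30.8% (9.09 to 61.4). The 21.4% and 12.3% of other genes lay inside these intervals. Tbx3 (chr5:120120678-120134733), which acts in limb and heart and in the self-renewal of embryonic stem cells, had 4 asynchronous peaks and 1 mitotic peak. The asynchronous peaks lay 1938 bp upstream (score 12.7), 9617 bp inside (11.8), 11387 bp inside (11.4) and 6567 bp past the end of the gene (14.8). The last held the CTCF core with no mismatch. The mitotic peak, score 10.9, overlapped the asynchronous peak at 11387 bp, in an intron, with centers 126 bp apart. Tbx2, a close relative, had a mitotic peak of score 13.1 at 688 bp past its end. Named after their values were seen, Tbx6 had an asynchronous peak 697 bp upstream, score 12.2, and Tbx1, a gene of the pharyngeal arches, 2 mitotic peaks, of which 1 lay 398 bp upstream, score 10.9. The mitotic peak near Tbx10, score 10.2, was 337 bp from the start of Nudt8.

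Gata genes encode zinc finger factors of blood, heart and endoderm, and 3 of the 6 were near a peak, 1 peak each, or 50% (11.8 to 88.2) against 27.4% of other genes. Gata3 (chr2:9778705-9811661), a T cell factor, had an asynchronous peak of score 14.8 in an intron, 5463 bp from its start. That peak was 3319 bp from the start of 4930412O13Rik. It also lay between 1 kb upstream and 100 bp downstream of an annotated transcript start. Gata5 (chr2:180059838-180069404), a gene of heart and endoderm, had an asynchronous peak of score 10.1 at 385 bp upstream. Both peaks are the asynchronous motif peaks shown above. Gata6, a gene of primitive endoderm, had a mitotic peak of score 10.2 in an intron, 504 bp from its start, without the motif. Gata1, Gata2 and Gata4 were near no peak.

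Among the 8 Lhx genes, which encode LIM homeodomain factors, 2 were near an asynchronous and 2 others near a mitotic peak. Lhx1 (chr11:84331479-84338923), which acts in head and kidney formation, had 2 mitotic peaks. The higher, score 11.6, lay in an intron 1469 bp from its start. The other, score 10.2, was the motif peak shown above, 1494 bp past the end of Lhx1 and 2961 bp from the start of Aatf. Lhx6, a gene of cortical interneurons, had a mitotic peak of 10.2 in an intron, 1766 bp from its start. The asynchronous peaks were 5089 bp past the end of Lhx3, a pituitary factor, with a score of 10.6, and 7602 bp upstream of Lhx5, with a score of 10.1. Of the 9 Pax genes, only Pax5, a B cell factor, was near a peak. It had an asynchronous peak of score 16.0 and a mitotic peak of score 10.2, both in introns. With so few genes the intervals were wide, 25.0% (3.19 to 65.1) for Lhx and 11.1% (0.281 to 48.2) for Pax in each list, and for Gata 33.3% (4.33 to 77.7) in asynchronous and 16.7% (0.421 to 64.1) in mitotic cells. The shares of other genes, 21.4% in asynchronous and 12.3% in mitotic cells, lay inside each of these intervals. Differences between families were not tested.

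A peak between 1 kb upstream and 100 bp downstream of the gene's own start was found at 5 members in asynchronous cells (Foxo4, Foxp4, Gata5, Hoxb7 and Tbx6), or 3.70% (1.21 to 8.43), against 5.94% of other genes. In mitotic cells it was found at 2 members, Hoxa5 and Tbx1, or 1.48% (0.180 to 5.25), against 2.32%. Both backgrounds lay inside the intervals of the members. By any transcript start, 12 of 37 asynchronous peaks at members were at a promoter, or 32.4% (18 to 49.8), against 31.3% of the other peaks, and 5 of 36 mitotic peaks, or 13.9% (4.67 to 29.5), against 20.4%. With a promoter of 2 kb to 500 bp these were 54.1% against 38.6% and 30.6% against 27.3%, so the order in mitotic cells depended on the definition. The gene with the closest start was itself a member for 24 asynchronous and 25 mitotic peaks.

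By position in the members near them, 13 asynchronous peaks lay upstream, 11 downstream, 9 in introns and 4 in exons. Of the mitotic peaks, 16 lay in introns, 7 in exons, 6 upstream and 7 downstream. From 250 bp before to 50 bp after the start, members had a median GC content of 60.3% and 16 CpG, against 55.0% and 11 at other genes. The peaks themselves had a GC content like that of other peaks, with medians of 56.1% at members and elsewhere in asynchronous cells, and 54.2% and 53.7% in mitotic cells. The median number of CpG was 5 at members and elsewhere in asynchronous peaks, but 6 at members and 4 elsewhere in mitotic peaks.

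The RBPJ motif was in 2 of 37 asynchronous peaks at members, or 5.41% (0.661 to 18.2), against 9.11% of the other peaks. In windows of the same width 2 kb to either side it was in 0 of 74 at members and in 1.63% of those of the other peaks. In mitotic cells it was in 2 of 36, or 5.56% (0.680 to 18.7), against 3.51% of the other peaks, and in 1 of 72 flanking windows at members, or 1.39%, against 1.71% of those of the other peaks. The shorter TTCCCA was in 32.4% of asynchronous and 38.9% of mitotic peaks at members, against 35.9% and 25.0%. The CTCF core with up to 1 mismatch was in 5 asynchronous peaks, or 13.5% (4.54 to 28.8), against 18.1%, and in 2 mitotic peaks, or 5.56% (0.680 to 18.7), against 8.34%. Each of these backgrounds lay inside the interval of the members. The windows of members held 606 matches to the RBPJ motif, of which 2 lay inside an asynchronous and 3 inside a mitotic peak, or 0.330% (0.0400 to 1.19) and 0.495% (0.102 to 1.44), against 0.396% and 0.103% of 96974 matches in the windows of other genes. Of the 3 mitotic matches, 2 were in the Lhx1 peak.

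Relatives and partners that the symbol rule does not take were counted the same way. Of 30 T-box, LIM homeodomain, ParaHox and GATA zinc finger genes, cofactors and Tle corepressors, 8 were near an asynchronous peak, or 26.7% (12.3 to 45.9), and 4 near a mitotic peak, or 13.3% (3.76 to 30.7). The shares of all genes outside the rule were 21.4% and 12.3%, and both lay inside these intervals. An overlapping pair was near 1 of them, Pbx2, a partner of Hox proteins, with scores up to 14.4 in asynchronous and 13.8 in mitotic cells. The highest asynchronous score among them was 16.9, at Lmx1b. The ParaHox genes had 3 of 6 genes near an asynchronous peak, Cdx1, Cdx2 and Gsx2, and none near a mitotic peak. Also near an asynchronous peak were 2 of 7 Hox cofactors, 1 of 4 T-box genes, 1 of 4 LIM homeodomain genes and 1 of 2 LIM cofactors. None of the 4 corepressors, 2 GATA cofactors and 1 GATA zinc finger gene was. Differences between these classes were not tested.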

How the data were processed

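Each of the 2 peak lists came from the first anti-RBPJ immunoprecipitation of its population; the second immunoprecipitations and the inputs were not used here. Per the submitters' processing notes, reads were mapped to mm9 with Bowtie 0.12.7 and peaks called with HOMER, which the study ran against the matching input. The deposited score of each peak is the authors' own measure, and heights were not compared between lists. Lists were read with pandas 2.3.3 under Python 3.11.15, the mm9 genome was read with pysam 0.24.0, and intervals were computed with scipy 1.17.1. Overlapping annotation entries of 1 symbol were joined, and 1 symbol and the details of 1 overlapping pair are not reported here. Peaks were paired by an overlap of at least 1 bp. Density ratios have intervals from the exact binomial share of peaks at members. The search functions were tested on simulated data. Alternatives covered the window, the placing of a peak, the score, the sex chromosomes, the overlap, the motifs and the promoter.

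Genes named were those near an overlapping pair, near the 10 highest asynchronous or 5 highest mitotic peaks at members (ties included), near a motif peak, or with the most peaks in their family, and the Hox clusters. Other members were named after their values were seen. The members and lists were chosen with earlier results of these data known.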

Additional observations from a re-analysis of the deposited data

How the results depend on the processing

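Of 116 values computed under alternatives, 83 stayed within the counting interval of the main value, or within 1.5 times the main count, and 33 moved. The mitotic share of members was above that of other genes in all 11 alternatives, the asynchronous share in 8, and the overlapping-pair share in 0. The interval of the mitotic density ratio lay above 1 in all 10 alternatives. That of the asynchronous ratio did so in 6 and took in 1 in the other 4, with the gene body alone (0.549 to 1.77), 5 kb (0.815 to 1.83), the median score (0.701 to 2.00) and X and Y left out (0.905 to 1.87).

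With the gene body alone, asynchronous, mitotic and either-list peaks lay at 8.89%, 12.6% and 18.5% of members, against 9.08%, 5.98% and 13.0% of other genes. That setting gave 13 asynchronous and 23 mitotic peaks at members and an asynchronous density ratio of 1.03. With a window of 5 kb the either-list share was 30.4%, against 23.1% of other genes. With 50 kb the shares were 48.9%, 47.4% and 65.9%, against 38.7%, 25.4% and 46.1% of other genes, with 77 and 55 peaks at members. A wider or narrower window takes in more or fewer peaks by construction. At or above the median score, 9.63% of members had an asynchronous and 25.2% an either-list peak, against 12.6% and 17.1% of other genes. There were 16 asynchronous and 22 mitotic peaks at members. Overlapping pairs were at 0% of members (0 to 2.70), against 1.37% of other genes. Of the peaks at members, 0% overlapped in asynchronous (0 to 20.6) and in mitotic cells (0 to 15.4), against 8.03% and 12.2% of the other peaks. Giving each peak to the closest start left shares of 14.8%, 14.8% and 24.4%, against 13.6%, 7.89% and 18.3% of other genes, and 24 asynchronous peaks.

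Requiring an overlap of 100 bp left 0% of the peaks at members shared in both lists (0 to 9.49 in asynchronous and 0 to 9.74 in mitotic cells), against 5.75% and 9.31% of the other peaks. With TTCCCA as the RBPJ motif the shares were 32.4% and 38.9%, against 35.9% and 25.0% of the other peaks, and with no mismatch for CTCF 2.70% and 0%, against 6.69% and 2.85%. Each background lay inside the interval of the members. A promoter of 2 kb to 500 bp held 54.1% of asynchronous and 30.6% of mitotic peaks at members, against 38.6% and 27.3% of the other peaks, so the mitotic share turned from below to above that of the others.

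Leaving out Sox5, leaving out chromosomes 6, 8 and 12, and counting Gatad genes as members were chosen after seeing the data. Without those chromosomes the density ratios were 2.15 and 3.68. No paired analysis was possible because only the first replicate of each population has a peak list here. The number of peaks, with 1 list per population, limits every share, and variation between cultures was not measured.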
